A study of Homo sapiens with 9 samples.

Results

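The D-type cyclins CCND1, CCND2 and CCND3, the kinases they switch on, CDK4 and CDK6, and the 3 members of the RB family, RB1, RBL1 and RBL2, form the switch at which a cell commits to division. These 8 genes were chosen by name, with earlier results of these data known. All 8 were measured, among 18417 genes with a probe set of their own on the array. Each had 1 probe set assigned to it alone (7942123 for CCND1, 7953200 for CCND2, 8126371 for CCND3, 7964522 for CDK4, 8140955 for CDK6, 7969017 for RB1, 8066136 for RBL1 and 7995631 for RBL2). Expression was profiled in IMR90 ER:RAS cells, human lung fibroblasts with a RAS oncoprotein that is joined to the ligand domain of the oestrogen receptor and is switched on by 4-hydroxytamoxifen (4OHT). There were 3 groups of 3 arrays. Knockdown cells carried a short hairpin RNA against the SWI/SNF subunit ARID1B (shARID1B) and were treated with 4OHT. Senescent cells carried an empty vector and were treated with 4OHT, and non-senescent cells carried the empty vector without 4OHT. All 9 samples carried ER:RAS, and the labels give day 6 after 4OHT, a dose of 100 nM for treated cells and 7 days of growth. The labels name no control hairpin, no shARID1B cells without 4OHT and no cells treated with 4OHT but lacking ER:RAS. Effects of the drug and of RAS therefore cannot be told apart, nor can those of carrying a hairpin and of losing ARID1B. The labels do not say which hairpin was used or that replicates were separate cultures. The paper describes them as 3 biological replicates. The p-values measure the spread between these samples.

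In early G1 phase, mitogens and RAS-ERK signalling raise D-type cyclins, which bind CDK4 or CDK6. The active kinases phosphorylate RB1 and its relatives RBL1 (p107) and RBL2 (p130), the pocket proteins, which otherwise hold E2F transcription factors in check. INK4 inhibitors such as p16 and p15 block CDK4 and CDK6, and in senescence hypophosphorylated pocket proteins keep E2F target genes off. The arrays measured RNA and neither phosphorylation nor protein.

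The values are log2 expression after RMA, and a difference of 1 on this scale is 2-fold. ARID1B, the target of the hairpin, read 8.07, 7.96 and 8.13 in knockdown cells, 8.63, 8.96 and 8.77 in senescent cells and 8.93, 8.85 and 8.94 in non-senescent cells. Knockdown cells lay below both other groups without overlap (log2 change -0.73 against senescent cells, limma adjusted p = 0.000179). Array medians lay between 6.70 and 6.79, and 6.75, the median of all values, is used here as a mark below which a signal was not shown to be above background. All 10 fibroblast markers measured averaged above 6.75 in every group, and 8 of them were called lower in senescent than in non-senescent cells. That is 80% of the list, beside 17.6% of all genes called lower. Their array means were 10.79 to 10.86 against 11.15 to 11.26 (10.84 to 10.90 in knockdown cells). Of the leukocyte, endothelial and epithelial markers, 5 of 6, 5 of 8 and 3 of 7 averaged below 6.75 in all groups, among them PTPRC, CDH5 and EPCAM. Their mean level per array ran from 6.28 to 6.31, 6.43 to 6.46 and 7.00 to 7.05 in knockdown cells, from 6.22 to 6.30, 6.35 to 6.49 and 6.83 to 6.96 in senescent cells, and from 6.23 to 6.25, 6.39 to 6.43 and 7.04 to 7.07 in non-senescent cells. Some listed markers lay above 6.75 in every group. CD68, a leukocyte marker, averaged 11.49, 11.14 and 10.85 in knockdown, senescent and non-senescent cells, and each difference between groups was called. KRT18, an epithelial marker, averaged 9.44, 9.65 and 9.60. Of the leukocyte, endothelial and epithelial markers, 5 were called in senescence and 5 with the hairpin, KRT19 at -1.10 and 0.86. In both comparisons that is 16.7%, 25% and 28.6% of the lists, beside 32.6% of all genes in senescence and 15.7% with the hairpin. The part of these markers in the results below was not tested.

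The comparison of senescent with non-senescent cells asks how the switch differed once RAS had been active for 6 days. Of the 8 genes, 1 rose (CCND3, 1.38-fold) and 3 fell (RBL1 to 0.535, CDK6 to 0.638 and CDK4 to 0.845 times the non-senescent level). CCND1, CCND2, RB1 and RBL2 were not called. The share called was 50% of the 8, beside 32.6% of all genes (14.9% higher and 17.6% lower), and the arrays of 5 of the 8 did not overlap, beside 40.1% of all genes. The median log2 change was -0.13, beside -0.01 over all genes. A gene was called at a limma adjusted p under 0.05, with adjustment over all 18417 genes. In RNA from whole cultures, fewer cells of a kind and less RNA per cell cannot be told apart.

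The comparison of knockdown with senescent cells asks what differed with the hairpin among cells treated with 4OHT. CCND2 fell to 0.662 and CDK6 to 0.676 times the senescent level, and the other 6 genes were not called, with log2 changes between -0.09 and 0.06. That is 25% of the 8, beside 15.7% of all genes (9.63% higher and 6.09% lower), and the arrays of 3 of the 8 did not overlap, beside 32.5% of all genes. Against non-senescent cells, knockdown cells had higher CCND3 and lower CCND2, CDK4, CDK6 and RBL1, 62.5% of the 8 beside 31.5% of all genes (15.6% higher and 15.9% lower), and the arrays of 6 of the 8 did not overlap, beside 45.9% of all genes. The comparisons share arrays, so that their values are set side by side here and not compared as independent results.

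**Figure D1:**
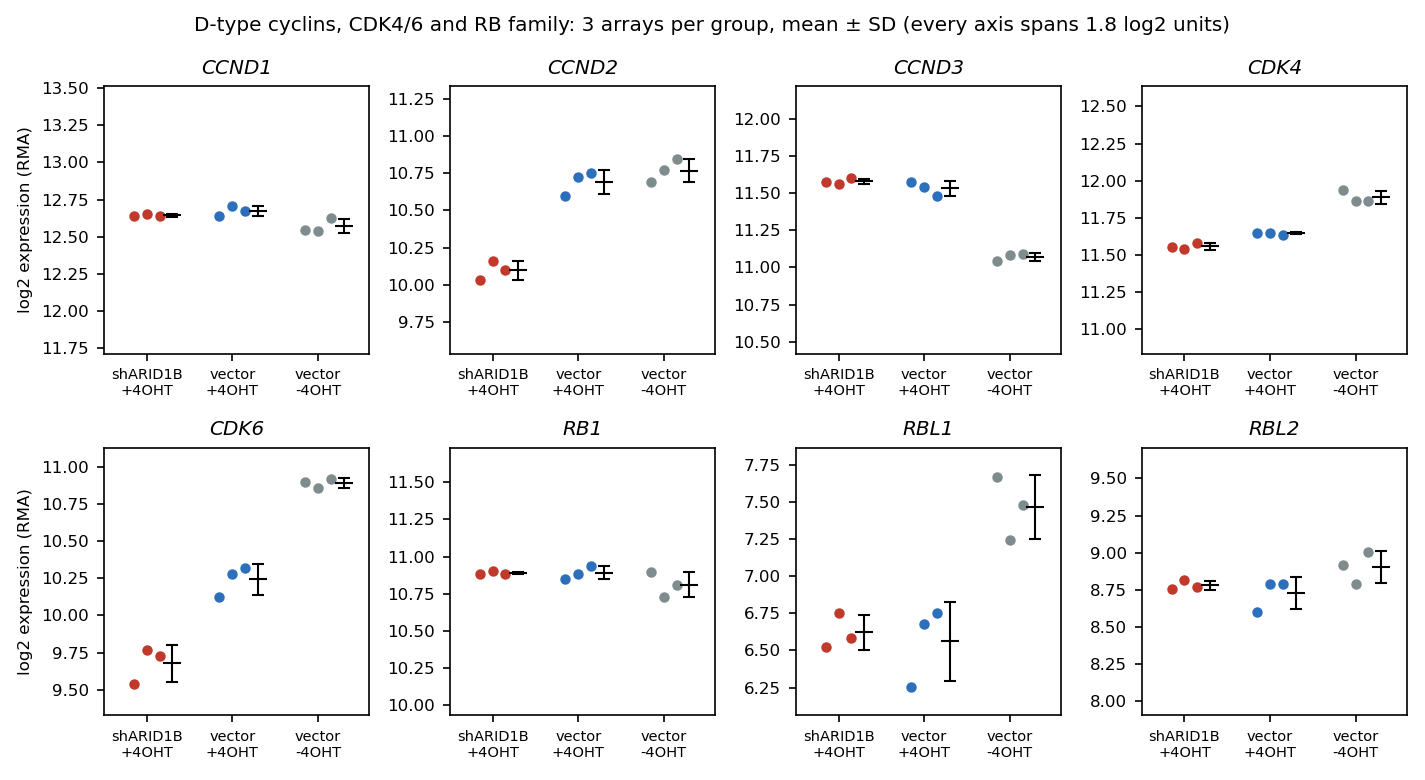
Log2 expression (RMA, y axis) of the 8 genes on the 3 arrays of each group (points, x axis) with mean ± SD (bars), each axis spanning the same number of log2 units. CDK6 steps through 3 levels, averaging 9.68 in knockdown, 10.24 in senescent and 10.89 in non-senescent cells, while RB1 averages 10.89, 10.89 and 10.81.

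CCND1 encodes the D-type cyclin best known as a target of RAS signalling. It read 12.64, 12.66 and 12.64 in knockdown cells, 12.64, 12.71 and 12.67 in senescent cells and 12.54, 12.54 and 12.63 in non-senescent cells. All 3 senescent arrays lay above all 3 non-senescent arrays, but by little. The log2 change was 0.10 (95% interval -0.003 to 0.21, adjusted p = 0.137), and it was called when limma's prior was fitted with a trend and robustly (adjusted p = 0.0255). With the hairpin the change was -0.03 (95% interval -0.13 to 0.08, adjusted p = 0.74).

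CCND2, the cyclin D2 gene, read 10.03, 10.16 and 10.10 in knockdown cells, 10.60, 10.72 and 10.75 in senescent cells and 10.69, 10.77 and 10.84 in non-senescent cells. The arrays with the hairpin lay below all others, and the senescent and non-senescent arrays overlapped. The fall with the hairpin was 0.59 on the log2 scale (SE 0.063, 95% interval -0.73 to -0.46, adjusted p = 0.000139), which put CCND2 among the 106 lowest changes of 18417 genes. Senescent cells differed from non-senescent cells by -0.08 (95% interval -0.22 to 0.06, adjusted p = 0.419). Against non-senescent cells the knockdown level was 0.628 times as high (adjusted p = 1.15e-05).

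CCND3, the cyclin D3 gene, was the member that rose. It read 11.58, 11.56 and 11.60 in knockdown cells, 11.58, 11.54 and 11.48 in senescent cells and 11.04, 11.08 and 11.09 in non-senescent cells. Both groups treated with 4OHT lay above the untreated one, and they overlapped each other. The rise in senescence was 0.46 on the log2 scale (SE 0.047, adjusted p = 2.11e-05), and 12.5% of genes had a larger change in either direction. The change with the hairpin was 0.05 (95% interval -0.06 to 0.15, adjusted p = 0.541).

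CDK4 and CDK6 encode the kinases that D-type cyclins activate. CDK4 read 11.55, 11.54 and 11.58 in knockdown cells, 11.65, 11.65 and 11.64 in senescent cells and 11.94, 11.86 and 11.86 in non-senescent cells. The 3 groups were ordered without overlap, with the knockdown arrays lowest and the non-senescent arrays highest. The fall in senescence was 0.24 (SE 0.045, adjusted p = 0.00163). The step with the hairpin, -0.09, was not called (95% interval -0.19 to 0.01, adjusted p = 0.242). It passed under the methods' t-test with Benjamini-Hochberg adjustment (adjusted p = 0.041), in which the SD of 0.007 over the senescent arrays was not pooled with that of other genes.

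CDK6 was the one member called in all 3 comparisons. It read 9.54, 9.77 and 9.73 in knockdown cells, 10.13, 10.28 and 10.32 in senescent cells and 10.90, 10.86 and 10.92 in non-senescent cells. The groups were again ordered without overlap, and the gaps between them were wider than the spread within any of them. It fell by 0.65 in senescence (SE 0.072, 95% interval -0.81 to -0.49, adjusted p = 3.93e-05). With the hairpin it fell by a further 0.56 (95% interval -0.72 to -0.41, adjusted p = 0.000441). Knockdown cells thus held 0.431 times the non-senescent level (log2 change -1.21, adjusted p = 3.18e-07), and 2.12% of genes differed more between those 2 groups.

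RB1, the pocket protein gene that gives the pathway its name, had the narrowest range of group means, 0.08. It read 10.88, 10.90 and 10.88 in knockdown cells, 10.85, 10.88 and 10.94 in senescent cells and 10.90, 10.73 and 10.81 in non-senescent cells. All 3 groups overlapped. The change was 0.08 in senescence (95% interval -0.04 to 0.20, adjusted p = 0.316) and -0.002 with the hairpin (95% interval -0.12 to 0.12, adjusted p = 0.982), which was 0.02 with array medians subtracted.

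RBL1, the p107 gene, is itself a known E2F target in dividing cells. Its promoter is shown because the gene was called lower in senescence, as were 15 of the 17 E2F target genes measured. The window runs from 250 bases before to 50 after the RefSeq start site (GRCh38.p14, chr20:37095948-37096247, minus strand) and is written 5′ to 3′ along the gene, with E2F motifs in capitals.
RBL1 promoter: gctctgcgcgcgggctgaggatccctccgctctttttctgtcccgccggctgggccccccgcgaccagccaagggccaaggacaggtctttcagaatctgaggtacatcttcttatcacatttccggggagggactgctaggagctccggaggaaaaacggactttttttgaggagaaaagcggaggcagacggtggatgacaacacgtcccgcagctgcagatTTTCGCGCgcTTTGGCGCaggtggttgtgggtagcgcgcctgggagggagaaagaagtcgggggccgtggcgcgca
It holds TTTCGCGC at positions -26 to -19 and TTTGGCGC at -16 to -9 from the start site. The motifs searched for, on both strands, were the E2F words TTTCCCGC, TTTCGCGC, TTTGCCGC and TTTGGCGC and the AP-1 words TGACTCA and TGAGTCA. An E2F word occurred in 3.31% of 35116 promoter windows, in 10 of 15 windows of the E2F target list and, among the 6 of the 8 genes with a window, in that of RBL1. An AP-1 word occurred in 4.95% of all windows and in 0 of the 6. CCND1 and CCND2 had no window in the table. The RB1 window started 173 kb inside the RefSeq gene and the CCND3 window 1.35 kb inside it, so that neither covers the promoter at the 5′ end of its gene, and windows of other genes may likewise lie at inner start sites. A match describes the sequence and is not evidence of binding.

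RBL1 read 6.52, 6.75 and 6.59 in knockdown cells, 6.25, 6.67 and 6.75 in senescent cells and 7.67, 7.24 and 7.48 in non-senescent cells. Every array of both groups treated with 4OHT lay below every untreated array, and those 2 groups overlapped. Of the 8 genes it had the largest change in senescence, a fall of 0.90 (SE 0.14, 95% interval -1.20 to -0.60, adjusted p = 0.000382). Under the methods' t-test with Benjamini-Hochberg adjustment the call was lost (adjusted p = 0.051). The senescent and knockdown means, 6.56 ± 0.27 (SD, n = 3) and 6.62 ± 0.12 (SD, n = 3), lay below 6.75, so that the size of the fall is uncertain. With the hairpin the change was 0.06 (95% interval -0.24 to 0.36, adjusted p = 0.811), and it was -0.09 without senescent replicate 1 and -0.005 without knockdown replicate 2.

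RBL2, the p130 gene, encodes the pocket protein that prevails in resting cells. It read 8.76, 8.82 and 8.77 in knockdown cells, 8.60, 8.79 and 8.79 in senescent cells and 8.92, 8.79 and 9.0 in non-senescent cells. One non-senescent array, replicate 2, lay at the level of the treated cells, with the same value, 8.78879, as senescent replicates 2 and 3. The change in senescence was -0.18 (adjusted p = 0.0806), and without non-senescent replicate 2 it was -0.23 and called (adjusted p = 0.0326). With the hairpin the change was 0.05 (adjusted p = 0.664), and -0.009 without senescent replicate 1.

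**Figure D2:**
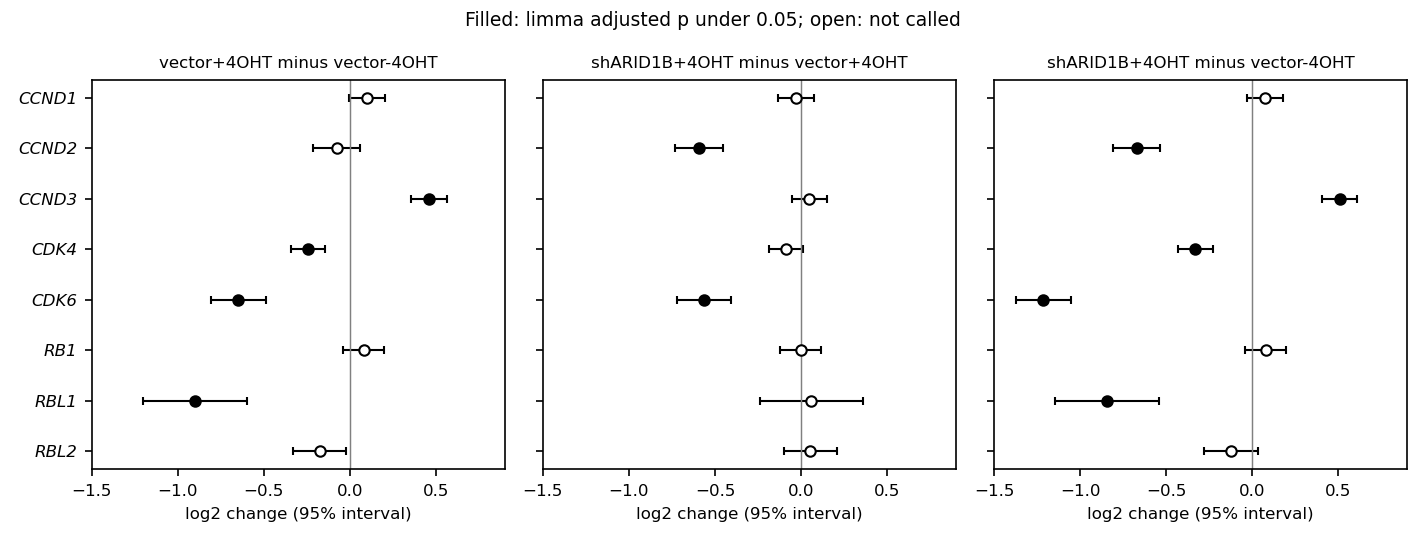
Log2 change (x axis) with its 95% interval for the 8 genes (y axis) in 3 comparisons, filled where the limma adjusted p was under 0.05. Only CDK6 is filled in all 3 panels, at -0.65, -0.56 and -1.21, and CCND2 is filled in the panels that hold the shARID1B group.

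To ask whether relatives moved unequally, the difference of 2 log2 values was taken within each array for 5 pairs of members. Such a difference follows a ratio between groups and says nothing of which gene is more abundant. With 3 arrays against 3 an exact permutation test cannot give a p below 0.1, so that none of the 15 tests (5 pairs in 3 comparisons) could pass 0.05, and the smallest adjusted p was 0.125. The CDK6/CDK4 difference was -2.02, -1.77 and -1.86 in knockdown cells, -1.52, -1.37 and -1.32 in senescent cells and -1.04, -1.01 and -0.95 in non-senescent cells. The ratio in knockdown cells was 0.718 times the senescent one and that in senescent cells 0.755 times the non-senescent one, without overlap (2-sided exact permutation p = 0.1 each).

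The CCND1/CCND2 difference was 2.61, 2.49 and 2.54 in knockdown cells, 2.04, 1.98 and 1.92 in senescent cells and 1.86, 1.77 and 1.78 in non-senescent cells. The ratio was 1.48 times the senescent one in knockdown cells and 1.13 times the non-senescent one in senescent cells, without overlap (2-sided exact permutation p = 0.1 each). The CCND1/CCND3 ratio was 0.780 times the non-senescent one in senescent cells (exact permutation p = 0.1), and knockdown and senescent arrays overlapped (0.948 times, exact permutation p = 0.2).

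Among pocket proteins, the RB1/RBL1 ratio was 1.98 times the non-senescent one in senescent cells and the RBL1/RBL2 ratio 0.604 times (2-sided exact permutation p = 0.1 each, no overlap). Because RBL1 averaged below 6.75 in both treated groups, the sizes of these ratios are uncertain. With the hairpin these ratios were 0.957 and 1.01 times the senescent ones, and the arrays overlapped (exact permutation p = 0.8 and 1).

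**Figure D3:**
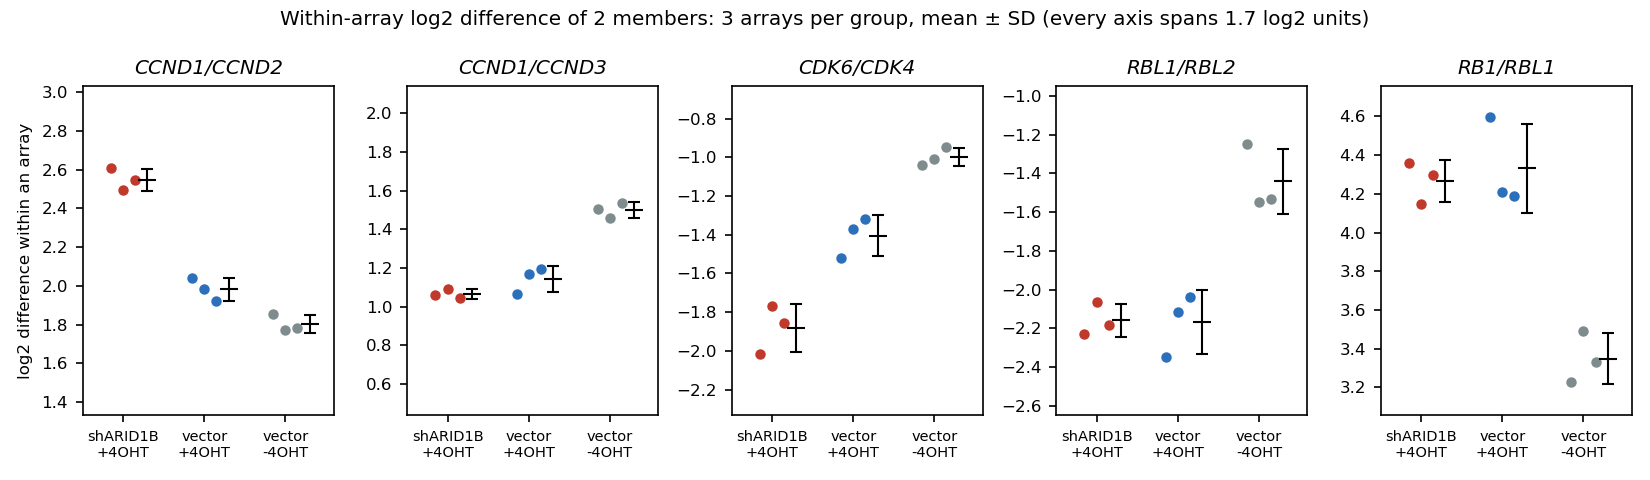
Within-array log2 difference of 2 members (y axis) on the 3 arrays of each group (points, x axis) with mean ± SD, for 5 pairs. CDK6/CDK4 averages -1.88 in knockdown, -1.40 in senescent and -0.998 in non-senescent cells, and the RBL1/RBL2 means of knockdown and senescent cells are -2.16 and -2.17, with RBL1 below 6.75 in both.

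Upstream of the kinases, 6 of 7 CDK inhibitors were measured, of which 3 rose and 1 fell in senescence (median log2 change 0.28). That is 66.7% of those measured, beside 32.6% of all genes. CDKN2B, which encodes the CDK4/6 inhibitor p15, averaged 11.10 ± 0.02 in knockdown cells, 10.99 ± 0.044 in senescent cells and 8.86 ± 0.083 in non-senescent cells (SD, n = 3 each). Senescent cells thus held 4.38 times the non-senescent level (adjusted p = 4.72e-10). The change with the hairpin, 0.11, was not called (adjusted p = 0.204). The p16 and ARF gene CDKN2A rose 1.41-fold and CDKN1A, the p21 gene, 1.61-fold, while CDKN1B, the p27 gene, fell to 0.638 times the non-senescent level (adjusted p = 0.000744). CDKN1A was the inhibitor called with the hairpin, at 0.719 times the senescent level (adjusted p = 0.000279). That is 16.7% of the 6, beside 15.7% of all genes. The changes of CDKN2A, -0.14 (adjusted p = 0.108), and CDKN1B, 0.34 (adjusted p = 0.056), were not called. CDKN1B was called without non-senescent replicate 1 or 2 (adjusted p = 0.0296 and 0.0489) or senescent replicate 3 (0.0211).

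Of 5 genes that limit cyclin D protein or mark it for decay, 2 fell in senescence, both of them F-box proteins of ubiquitin ligases, FBXO4 (0.540 times, to a mean of 6.56, below 6.75) and FBXW8 (0.738 times). The share called in senescence was 40% of the 5, beside 32.6% of all genes. Of these 5, 0 were called with the hairpin by limma, beside 15.7% of all genes. An unadjusted p under 0.05 was found for 1, namely GSK3B, the kinase that marks cyclin D1 for export and decay, at -0.16 (adjusted p = 0.0744). Of the CDK-activating kinase, which phosphorylates CDK4, CDK6 and other CDKs, the cyclin subunit CCNH rose by 0.37 (adjusted p = 0.000413) and the assembly factor MNAT1 by 0.25 (adjusted p = 0.0242) in senescence. The kinase subunit CDK7 had a change of 0.01 and was not called (limma adjusted p = 0.904). The share called in senescence was 66.7% of the 3 genes, beside 32.6% of all genes. The MNAT1 call in senescence was lost without non-senescent replicate 2 or 3 (adjusted p = 0.0981 and 0.0778) or senescent replicate 2 or 3 (0.0655 and 0.0738). With the hairpin CDK7 was not called either (0.16, limma adjusted p = 0.0699). MNAT1 was called higher (0.25) and CCNH lower (-0.19), both at limma adjusted p = 0.0482. That is 66.7% of the 3 genes, beside 15.7% of all genes.

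Parallel to CDK4/6, the cyclin E, cyclin A and CDK2 module went both ways in senescence, with 2 of 7 genes higher and 3 lower. These calls make 71.4% of the module, beside 32.6% of all genes. CDK2, the kinase that takes over from CDK4/6 at the start of S phase, read 10.38, 10.43 and 10.34 in knockdown cells, 10.28, 10.38 and 10.31 in senescent cells and 9.38, 9.33 and 9.26 in non-senescent cells. It rose 2.0-fold in senescence (adjusted p = 1.53e-07), whereas CDK6 and CDK4 fell. Cyclin E2 (CCNE2) fell to 0.351 times the non-senescent level with both treated means below 6.75, cyclin A2 (CCNA2) to 0.359 times and SKP2, which targets p27 for destruction, to 0.521 times. CCNE1, the cyclin E1 gene, rose 1.40-fold. With the hairpin CCNA2 was called alone of the 7 (14.3%, beside 15.7% of all genes), at 1.24 times the senescent level (adjusted p = 0.0105).

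Downstream of the pocket proteins, E2F target genes fell as a list in senescence, with 15 of 17 measured members called lower and 0 called higher. That is 88.2% called, beside 32.6% of all genes (17.6% lower). The median log2 change was -0.52, beside -0.01 over all genes. RRM2, a ribonucleotide reductase subunit, fell to 0.439 times, the thymidylate synthase gene TYMS to 0.496 times and the thymidine kinase gene TK1 to 0.512 times the non-senescent level. With the hairpin 4 of 17 were higher and 1 lower (29.4% called, beside 15.7% of all genes), at a median of 0.02. TYMS (1.34-fold), RRM1, the other reductase subunit (1.32-fold), and PCNA, the sliding clamp of DNA polymerases (1.25-fold), were among the higher ones. POLA1, a DNA polymerase subunit named after its value was seen, was 1.30-fold higher and CDC6, a loader of replicative helicase, 0.673 times as high, calls that were each lost without at least 1 array and that involve means below 6.75. Against non-senescent cells all 17 members were called in knockdown cells, beside 31.5% of all genes. Of the 17, 16 were lower and 1 (PCNA) higher, at a median of -0.51. Of these calls those of CDT1 and ORC1, both replication licensing genes, were each lost without 1 or more arrays (adjusted p up to 0.121 and 0.129). CDT1 had both treated means below 6.75 and ORC1 all means.

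Of 10 E2F and DP factors, 1 rose and 2 fell in senescence (30% called, beside 32.6% of all genes). E2F7, an atypical E2F that represses E2F target genes, read 10.82, 10.82 and 10.81 in knockdown cells, 11.31, 11.48 and 11.35 in senescent cells and 9.13, 9.20 and 9.20 in non-senescent cells. The rise in senescence was 4.62-fold (adjusted p = 3.83e-10), and the knockdown level was 0.677 times the senescent one (adjusted p = 8.48e-05), still 3.12 times the non-senescent one. E2F8, its closest relative, fell by 0.68 (adjusted p = 0.00331) with all means below 6.75. E2F4, E2F5 and, named after their values were seen, E2F1, E2F2 and E2F3, all of which bind pocket proteins, had changes in senescence between -0.16 and 0.11 and were not called by limma, E2F2 with all means below 6.75. With the hairpin E2F5 was 1.25-fold higher (limma adjusted p = 0.0191), a call that was lost without 1 or more arrays. Of the 10 factors, 2 were called with the hairpin, E2F7 and E2F5 (20%, beside 15.7% of all genes).

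RBL1 and RBL2 act within the DREAM complex, in which the MuvB core joins a pocket protein to an E2F. Of 6 MuvB and B-MYB genes, 3 fell in senescence (50%, beside 32.6% of all genes called). They were MYBL2, the B-MYB factor that binds MuvB in dividing cells (0.640 times, adjusted p = 2.09e-05), LIN54, the DNA-binding subunit of MuvB (0.750 times), and RBBP4, a histone-binding subunit (0.789 times). With the hairpin RBBP4 was 1.22-fold higher (adjusted p = 0.0067) and MYBL2 had a change of -0.17 (adjusted p = 0.122). The 7 lists were chosen with earlier results of these data known. Over all 7 lists 34 of 54 measured genes were called in senescence (63%, beside 32.6% of all genes) and 13 with the hairpin (24.1%, beside 15.7%). Of the 34, 31 were called whichever array was left out, and the calls of MNAT1, TFDP2 and CDC6 were lost without 1 or more arrays. Of the 13, 7 were called whichever array was left out, namely CDKN1A, CCNA2, E2F7, RBBP4, PCNA, RRM1 and TYMS. The calls of CCNH, MNAT1, E2F5, LIN54, CDC6 and POLA1 were each lost without 1 or more arrays.

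**Figure D4:**
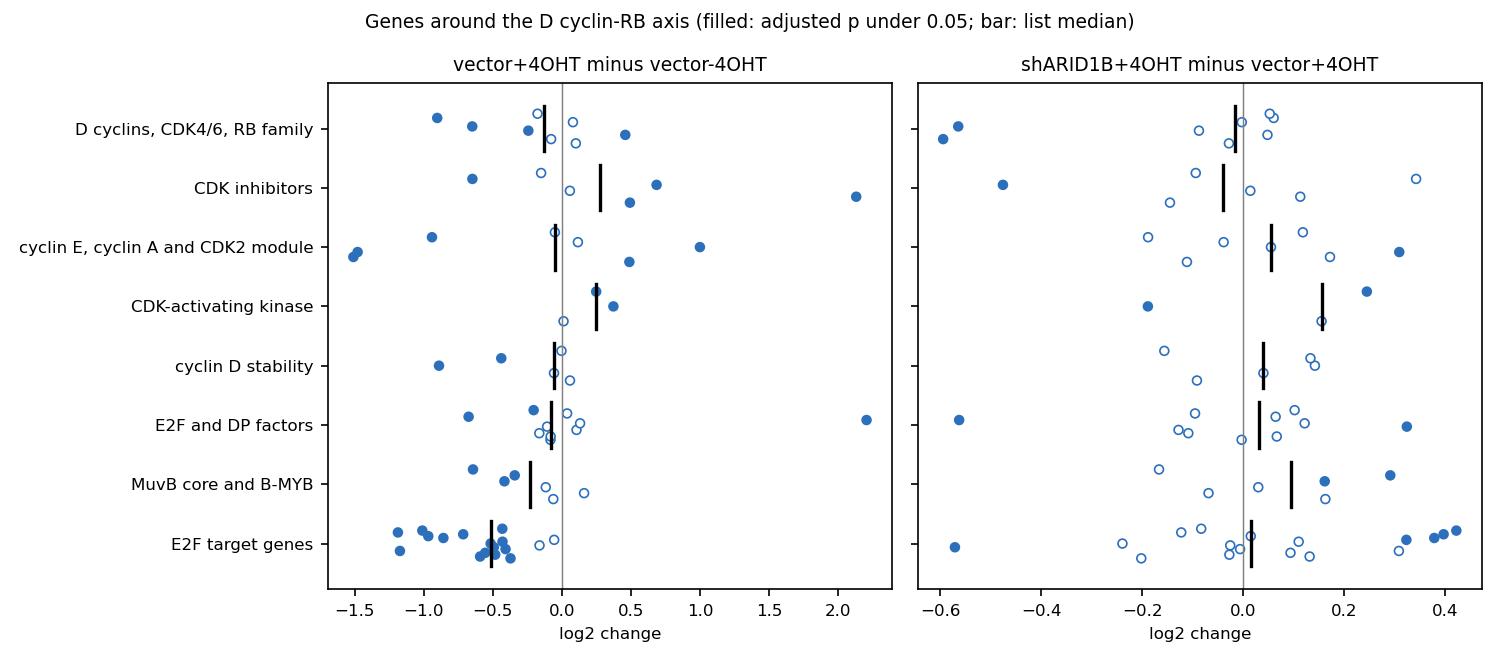
Log2 change (x axis) of the genes of each list (points, filled where the limma adjusted p was under 0.05) with the list median (bar), for senescence on the left and the hairpin on the right, on different scales. The E2F target genes lie below 0 in senescence with a median of -0.52, and with the hairpin their median is 0.02, while CDK6 and CCND2 stand at -0.56 and -0.59.

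CDK6 and RBL1 had the widest ranges of group means of the 8 genes, 1.21 and 0.90. The genes whose values, centred on their own mean, followed each most closely over the 9 arrays were found by the root mean square difference. Nearest to CDK6 were NOTCH2, a Notch receptor (0.056 log2 units), MAP3K7CL (0.077) and CRYBG1 (0.080). NOTCH2 averaged 10.04 in knockdown, 10.60 in senescent and 11.24 in non-senescent cells, the same 3 steps as CDK6. Nearest to RBL1 were NCAPG2, a subunit of the condensin II complex that compacts mitotic chromosomes (0.094), CC2D2A, a gene of the ciliary transition zone (0.095), and DZIP3, an RNA-binding ubiquitin ligase (0.095). NCAPG2 averaged 6.89 in knockdown, 6.76 in senescent and 7.70 in non-senescent cells. These are likenesses over 9 arrays in 3 groups and are given as a description.

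**Figure D5:**
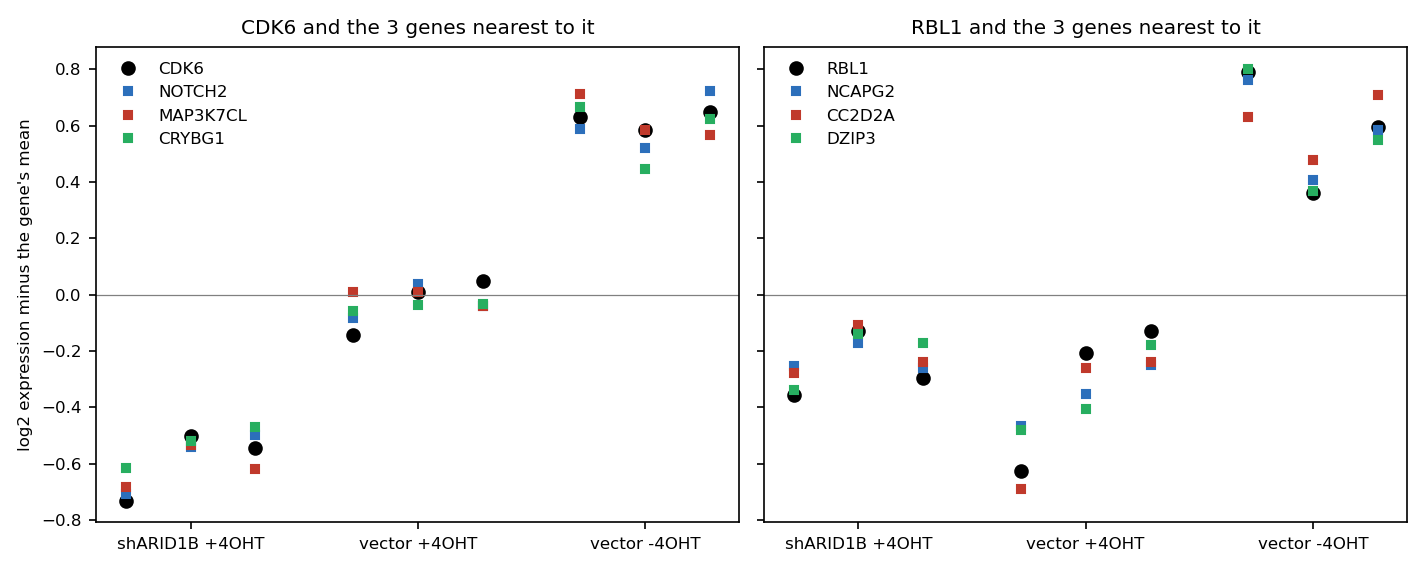
Log2 expression minus each gene's mean over the 9 arrays (y axis) for CDK6 (left) and RBL1 (right, black circles) and the 3 genes nearest to each (squares), with the arrays of a group side by side in the order of their replicate numbers (x axis). CDK6 and its neighbours lie at 3 levels, RBL1 and its neighbours at 2, with the shARID1B and vector arrays treated with 4OHT overlapping.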

How the data were processed

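Gene expression was measured on 9 arrays of an Affymetrix whole-transcript gene array, 3 for each group. The authors deposited log2 expression values per probe set, normalized together by RMA, and the submitters' processing notes name RMA, oligo and limma. Versions and the genome build are not given in the sources used here. RMA pulls the arrays to a common distribution, so that values are relative within this set. Some genes, among them RB1, RBL1 and RBL2, had the same value on several arrays. In 721 genes all arrays of at least 1 group shared 1 value. The cause was not tested. The labels' extraction text names an Illumina library kit, which was not used to interpret the values.

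Of 33297 probe sets, 19460 had 1 gene symbol in the platform annotation, 1754 had several and 12083 had none. Probe sets of 1 symbol were kept, with the brightest for each of the 769 genes that had several, giving 18417 genes. limma 3.58.1 in R 4.3.3 (lmFit, eBayes) was fitted to all 9 arrays with group as the term, 2-sided, with Benjamini-Hochberg adjustment over all genes and a threshold of 0.05. The script was tested on simulated data. The number of arrays limits the precision, and the median residual SD was 0.0843. Promoter windows came from RefSeq (GRCh38.p14), with 6 of the 8 genes matched, 4 of them at the 5′ end of the RefSeq gene.

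The genes and lists were chosen with earlier results of these data known. Named were the 8 genes, ARID1B, CDKN1A, CDKN2A, at most 4 genes of each list with the lowest p-values in a comparison, and the 3 genes nearest to each of the 2 members with the widest range. POLA1, CDT1, ORC1, E2F1, E2F2, E2F3, CDH5 and the other cyclins and CDKs of the closing section fall outside this rule and were named after their values were seen. Listed genes without a probe set of their own were not analysed here. The settings also tried were a replicate block, a fit to the 6 arrays of each comparison, a filter on dim genes, all probe sets, mean probe sets, subtracted medians, a second quantile normalization, a trended robust prior, the methods' t-test and leaving out each array.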

Additional observations from a re-analysis of the deposited data

How the results depend on the processing

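Calls of the 8 genes were 3 to 5 in senescence, 2 to 3 with the hairpin and 5 against non-senescent cells under every alternative run. The calls that changed were CCND1 in senescence (trended robust prior, adjusted p = 0.0255, and the methods' t-test, unadjusted p = 0.0417), CDK4 with the hairpin (methods' t-test, adjusted p = 0.041), RBL1 in senescence (methods' t-test, adjusted p = 0.051) and RBL2 in senescence (without non-senescent replicate 2, adjusted p = 0.0326). The cause was not tested. With the hairpin, uncalled changes near 0 turned sign. RB1 was 0.023 with array medians subtracted and ran from -0.023 to 0.022 with 1 array left out. The leave-one-out ranges were -0.093 to 0.16 for RBL1, -0.0088 to 0.084 for RBL2, -0.084 to 0.073 for the RBL1/RBL2 difference and -0.13 to 0.070 for RB1/RBL1. The pathway lists had 13 calls with the hairpin, 18 with dim genes left out and 10 with array medians subtracted. With 1 array left out they had 7 to 15. They had 8 without senescent replicate 2, knockdown replicate 1 or knockdown replicate 2, and 7 without knockdown replicate 3. With the replicate number as a block, 4, 2 and 5 of the 8 genes were called in senescence, with the hairpin and against non-senescent cells, and 33, 9 and 33 list genes. Same-numbered arrays deviated together with correlations from -0.264 to 0.322 and other pairs from -0.331 to 0.337, so that the numbers were not taken to pair the samples. Over all genes the methods' t-test called 3737, 1446 and 4465 after adjustment, against 5996, 2895 and 5800 by limma. With groups of 3 arrays, a gene that was not called may still have changed by an amount within its interval.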

Other observations

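Beyond the D-type cyclins and CDK4/6, 26 other genes with a cyclin symbol and 15 with a CDK symbol were measured. These families were chosen by symbol alone, after values had been seen, and whether each gene encodes a working protein was not checked. In senescence 5 of the cyclins were higher and 6 lower, and 4 of the CDKs were higher and 3 lower, 42.3% and 46.7% of each family beside 32.6% of all genes. With the hairpin 3 cyclins were higher and 2 lower, and 2 CDKs were higher and 2 lower, 19.2% and 26.7% beside 15.7% of all genes. CCNA1, with all means below 6.75, is counted as higher in senescence and as lower with the hairpin. CCNI2, CCNO, CCNP, CCNYL2 and CCNYL6 also had all means below 6.75 and were called in neither comparison.

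CDK1, the mitotic kinase, averaged 6.00 ± 0.053 in knockdown cells, 5.42 ± 0.24 in senescent cells and 7.42 ± 0.22 in non-senescent cells (SD, n = 3 each), the lower means lying below 6.75. CCNB2, one of its cyclins, fell to 0.313 times the non-senescent level in senescent cells (limma adjusted p = 1.01e-06). CDK15 fell to 0.441 times (adjusted p = 1.03e-05), while CDK14, a kinase activated by cyclin Y at the membrane, rose 1.53-fold (adjusted p = 1.41e-05) and CDK5, best known in neurons, 1.36-fold (adjusted p = 1.57e-05).

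CDK17 averaged 9.57 in knockdown cells, 10.26 in senescent cells and 9.83 in non-senescent cells, and with the hairpin it fell to 0.618 times the senescent level. CDK19, a kinase of the Mediator complex, was 1.34-fold higher in knockdown than in senescent cells, with a change in senescence of 0.03 (adjusted p = 0.797). CCNG2, a cyclin linked to cell cycle arrest, fell to 0.729 times the non-senescent level in senescent cells (adjusted p = 7.03e-05) and was 1.22-fold higher in knockdown than in senescent cells.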
